A study of Mus musculus with 16 samples.

Results

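The data describe mouse miR-221 and miR-222, mmu-miR-221 and mmu-miR-222 on the array, in carotid arteries before and after wire injury. They are 2 of the 611 mouse miRNAs on the array, and both were taken by their name in the array's annotation. Each of 16 arrays held RNA from a carotid artery of a female C57BL/6 mouse lacking ApoE, labelled ApoE-/-. The genotype, sex, background and, per the labels' treatment text, the western-type diet were common to all groups, the controls included, so that every comparison is made on this background. The groups were 3 uninjured arteries and arteries taken 1 day (3 arrays), 7 days (3 arrays), 14 days (3 arrays) and 28 days (4 arrays) after wire injury. The animals were labelled 6 to 8 weeks old, except those of day 1, which were labelled 8 weeks old. The labels give 3 to 4 animals per group, and do not say whether an uninjured artery came from an animal that had been injured on its other side. The array is a 1-colour Agilent miRNA array with the miRNAs of Sanger release 12, hybridised with 700 ng of Cy3-labelled total RNA.

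miR-221 and miR-222 are neighbouring miRNAs on the X chromosome, processed from a common primary transcript. A miRNA guides the Argonaute complex to messenger RNAs that pair with its seed, the bases near its 5′ end, and lowers their translation and stability. Known targets of both are the cell cycle inhibitors Cdkn1b (p27Kip1) and Cdkn1c (p57Kip2) and the stem cell factor receptor Kit. In the injured artery of the rat, both have been described to promote the growth of smooth muscle cells and the neointima, the cell layer that forms on the inner side of an injured vessel. In endothelial cells they have been described to restrain growth and migration. The arrays measured miRNAs only, so none of these targets was measured here.

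The mature strands are shown because both miRNAs share a seed and differ after it. Bases 2 to 8, the seed, are in capitals, 5′ to 3′, from RefSeq on the GRCm38.p6 build.
miR-221-3p: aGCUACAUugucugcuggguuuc
miR-222-3p: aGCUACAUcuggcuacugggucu
miR-1928: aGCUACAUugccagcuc
miR-221-3p lies at chrX:19146307-19146329 and miR-222-3p at chrX:19146901-19146923, both on the minus strand. The first 8 bases are identical, and 11 of the 23 positions are identical when both are read from the 5′ end. Their hairpins are 504 bases apart, with miR-222 on the 5′ side in the direction of transcription. Of the 1738 mature mouse miRNAs in the RefSeq table, 3 have this seed. The third is miR-1928 on chromosome 1 (chr1:74206562-74206578), which had no probe on the array. The array names carry no arm, and the strand named by its annotation is the 3′ arm shown here. The other strand of each hairpin had no probe.

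The hairpins show where each mature strand, in capitals, lies in its precursor.
Mir221 hairpin: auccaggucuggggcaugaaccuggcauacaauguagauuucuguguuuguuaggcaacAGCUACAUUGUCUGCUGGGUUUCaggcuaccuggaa
Mir222 hairpin: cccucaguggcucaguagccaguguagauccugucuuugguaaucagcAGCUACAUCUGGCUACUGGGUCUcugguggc
The Mir221 hairpin spans chrX:19146294-19146388 and the Mir222 hairpin chrX:19146893-19146971 on the minus strand.

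Signals are given as a percentage of each array's 75th percentile over the 395 probes detected above background on each of the 16. That percentile was 401 to 624 intensity units on the uninjured arrays and 484 to 1432 on the injured ones, which overlap. Between 251 and 335 miRNAs were well above background on an array, 251 to 292 of them on the uninjured arrays. The arrays lay on 2 slides. Slide 1 held day 1, day 7 and 2 arrays of day 28, and slide 2 held the uninjured arteries, day 14 and the other 2 of day 28. Slide and group are therefore tied for day 1 and day 7 against uninjured, apart from what day 28 carries across. The array of day 14 replicate 1 stood apart by neuronal markers, all at the floor there, and day 28 replicate 2 by epithelial markers, summed to 169% against at most 12.0% on the other arrays. Differences of miR-221 and miR-222 whose call changed, or that moved by over 1.5 times, without 1 of these arrays are given both ways. Of the markers of the artery, miR-143 and miR-145 of smooth muscle and miR-126-3p of endothelium were well above background on 16 of 16 arrays. miR-126-5p was at the floor on all 16.

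miR-221 was higher after injury at each of the 4 times measured, by 2.40-fold at day 1 and 3.54-fold at day 28. It was well above background on 16 of 16 arrays. In uninjured arteries its signal was 12.1%, 12.7% and 8.73% of the 75th percentile, with a mean of 11.2% ± 2.15 (SD, n = 3). At day 1 it was 34.3%, 21.6% and 24.9%, with a mean of 27.0% ± 6.59 (SD, n = 3). At day 7 it was 38.3%, 40.6% and 36.9%, with a mean of 38.6% ± 1.85 (SD, n = 3). The day 7 arrays were the closest to each other, and each lay above all arrays of day 1, as was so for 26.5% of the miRNAs tested. At day 14 the signal was 39.0%, 26.4% and 31.0%, with a mean of 32.1% ± 6.39 (SD, n = 3). At day 28 it was 38.7%, 56.3%, 31.8% and 33.4%, with a mean of 40.1% ± 11.2 (SD, n = 4). The lowest injured array, of day 1, lay above the highest uninjured array, and the highest of all was day 28 replicate 2. The arrays of all injured groups together lay wholly above the uninjured ones for 9.66% of the 321 miRNAs tested, miR-221 among them.

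**Figure D1:**
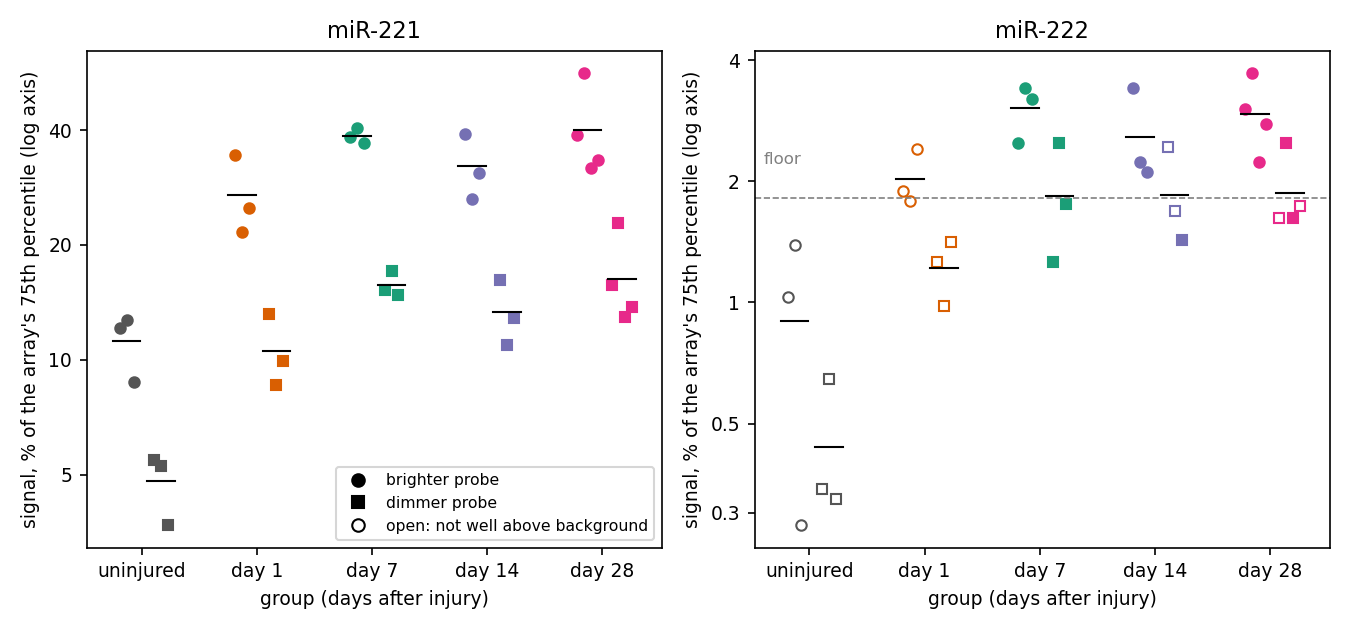
Signal of miR-221 (left) and miR-222 (right) on each array by group, as a percentage of the array's 75th percentile on a log axis. Circles are the brighter and squares the dimmer probe, open symbols are not well above background, bars are group means, and the dashed line is the floor of 1.81%. The 3 uninjured arrays lie below all injured arrays for both probes of miR-221, while miR-222 is near or under the floor on the uninjured and day 1 arrays.

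Against uninjured arteries, the difference in miR-221 was log2 1.26 ± 0.24 (SE) at day 1, with an adjusted p of 0.00139 by limma. At day 7 it was log2 1.81 ± 0.24, a 3.49-fold difference with an adjusted p of 4.18e-05. At day 14 it was log2 1.52 ± 0.24, a 2.88-fold difference with an adjusted p of 0.000265. At day 28 it was log2 1.82 ± 0.22, with an adjusted p of 4.45e-05. These p-values were adjusted over all 321 miRNAs tested, and such calls were common. For days 1, 7, 14 and 28 in turn, limma called 32.4%, 49.8%, 39.3% and 26.2% of them in either direction, and 19.6%, 27.4%, 20.2% and 16.8% as higher. Among the 321 differences, that of miR-221 stood at percentiles 86.9, 94.4, 93.1 and 96.9 for the same days. The median difference of all tested miRNAs for them was log2 0.24, 0.00, 0.00 and 0.03. Over all injured against all uninjured arrays, miR-221 was 3.07-fold higher (log2 1.62), with p = 0.00179 in a two-sided exact permutation test. That is the smallest p that 560 assignments of 3 of 16 arrays can give, and 30.8% of the tested miRNAs had an unadjusted p under 0.05 in it. The moderated F test over the 5 groups gave F = 20.5 with an adjusted p of 0.000108, and called 61.1% of all tested miRNAs. In bulk tissue, more cells that contain a miRNA and more of it per cell cannot be told apart.

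The rise at day 1 was the least firm of the 4. With slide as a block the difference at day 1 was log2 0.74 with an adjusted p of 0.234 by limma, where 9.35% of miRNAs were called. In that fit without day 28 replicate 2, it was log2 1.01 with an adjusted p of 0.113. With slide as a block and all arrays kept, the day 7 difference was log2 1.29 (adjusted p 0.0142 by limma, 28.7% called). Day 14 gave log2 1.52 (adjusted p 0.000172, 40.2% called) and day 28 gave log2 1.56 (adjusted p 0.000624, 17.1% called). The scaling had a like effect on day 1. With the 75th percentile taken over every mouse probe, the difference at day 1 was log2 0.63 with an adjusted p of 0.0850, while the median of all tested miRNAs moved from log2 0.24 to log2 -0.31. Taken relative to that median, miR-221 was higher by log2 1.02 under the main scaling and by log2 0.94 under the other. Leaving out day 14 replicate 1 gave log2 1.37 at day 14 (adjusted p 0.00198), and leaving out day 28 replicate 2 gave log2 1.65 at day 28 (8.11e-05), both by limma.

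**Figure D2:**
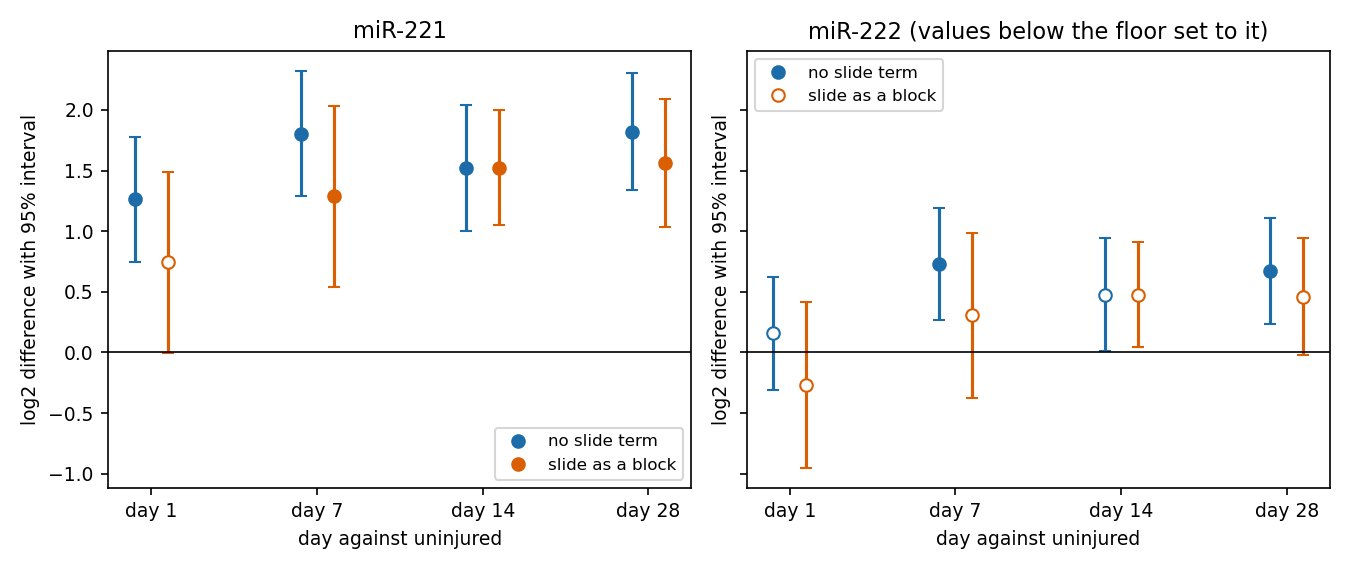
Log2 difference of each day from uninjured for miR-221 (left) and miR-222 (right), with 95% confidence intervals from limma without a slide term (blue) and with slide as a block (orange). Filled points have an adjusted p under 0.05. For miR-221 the 4 differences without a slide term lie between 1.26 and 1.82, and with slide as a block day 1 falls to 0.74 and is not called.

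Between injured groups, the order of the mean levels of miR-221 was day 1, day 14, day 7 and day 28 from low to high, and none of the 6 pairs of days passed the test. Day 7 against day 1 came to log2 0.54 with a 95% interval from 0.03 to 1.06 and an adjusted p of 0.0803 by limma, against 43.3% of miRNAs called in this comparison. Day 28 against day 1 came to log2 0.56 with an interval from 0.08 to 1.05 and an adjusted p of 0.0679 (34.3% of miRNAs called). These and day 14 against day 1, at log2 0.26 (adjusted p 0.399, 39.9% called), depended on the fit. With slide as a block, day 28 against day 1 was log2 0.82 with an adjusted p of 0.0326 (20.2% called), and log2 0.55 (adjusted p 0.236) in that fit without day 28 replicate 2. With the percentile over every mouse probe day 7 against day 1 was log2 1.03 with an adjusted p of 0.00727. In that scaling day 14 against day 1 was log2 0.82 (adjusted p 0.0272 by limma), and with quantile normalization it was log2 0.84 (adjusted p 0.0150 by limma). Without day 28 replicate 2, day 7 against day 1 kept its size and had an adjusted p of 0.0467. The differences were log2 -0.28 for day 14 against day 7, with a 95% interval from -0.80 to 0.24, log2 0.02 for day 28 against day 7 (-0.47 to 0.50) and log2 0.30 for day 28 against day 14 (-0.19 to 0.78), beside 10.3%, 33.6% and 15.3% of miRNAs called. Without day 14 replicate 1, day 14 differed by log2 0.11 from day 1 and by log2 -0.43 from day 7, and day 28 differed by log2 0.45 from day 14. Without day 28 replicate 2, day 28 differed by log2 0.12 from day 14 and by log2 -0.16 from day 7, so that day 7 and no longer day 28 had the highest mean. None of these 5 values passed the test (adjusted p 0.323 to 0.826 by limma).

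miR-221 was measured by 2 probes with 10 spots each, 8 to 10 of which carried no outlier mark. The brighter probe exceeded the dimmer by log2 1.29 ± 0.05 (SD, n = 16 arrays), so that the 2 moved together on every array. On the dimmer probe the differences from uninjured were 2.20-fold, 3.31-fold, 2.78-fold and 3.36-fold for days 1, 7, 14 and 28. Probes of a miRNA share the RNA of an array and are not replicates. Raw intensities of the brighter probe, with no scaling, were 48.7 to 68.3 units in uninjured arteries. They were 121 to 208 units at day 1 and 331 to 465 at day 7, and 190 to 443 and 189 to 618 at the last 2 times. The injured arrays thus also lay above the uninjured ones before scaling. Without scaling, however, the median of all tested miRNAs was itself higher, by log2 0.43, 0.86, 0.52 and 0.63 for days 1, 7, 14 and 28. Relative to that median, miR-221 was higher by log2 1.08, 1.90, 1.66 and 1.83.

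miR-222 was dim and was marked well above background only from day 7 on. Its brighter probe was well above background on 0 of 3 uninjured arrays, 0 of 3 day 1 arrays and 10 of 10 later arrays. The negative control spots averaged 0.256 to 1.51 units with an SD of 1.86 to 2.32 on an array. The mark of being well above background came from the flag that Agilent's software gave each spot, and was not computed here from these control spots. The intensity of miR-222 was 4.13, 7.48 and 1.74 units in uninjured arteries. At day 1 it was 11.5, 13.6 and 11.6 units. At day 7 it was 30.2, 27.9 and 32.4 units, and at day 14 it was 17.7, 16.1 and 30.2. At day 28 it was 20.1, 40.7, 21.9 and 15.7 units. The uninjured arrays were lower than all others, the day 1 arrays came between them and the later ones, and day 7, day 14 and day 28 overlapped. Relative to the 75th percentile, day 1 overlapped with day 14 and day 28, at 1.89%, 1.78% and 2.40%.

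As a percentage of the 75th percentile, the means of miR-222 were 0.900% ± 0.566 (SD, n = 3) in uninjured arteries and 2.03% ± 0.330 (n = 3) on day 1. They were 3.04% ± 0.486 (n = 3) on day 7, 2.58% ± 0.714 (n = 3) on day 14 and 2.94% ± 0.611 (n = 4) on day 28. For the fit, signals under 1.81% were set to that floor, near the lowest level that was well above background on a typical array. The 3 uninjured arrays and 1 of day 1 were at the floor, so that the sizes below are compressed. With the floor, day 7 exceeded uninjured by log2 0.73 ± 0.21 (SE; adjusted p 0.0119 by limma) and day 28 by log2 0.67 ± 0.20 (adjusted p 0.0248). For bounds, each uninjured array was set to the higher of its own signal and the lowest signal well above background on it. The ratio of miR-222 to uninjured was then 1.19-fold at day 7, 0.997-fold at day 14 and 1.14-fold at day 28. These values bound the undetected signal only and leave out the spread between arrays. With the floor, the difference at day 14 was log2 0.48 with an adjusted p of 0.0976 by limma. Without day 14 replicate 1 it was log2 0.26 with an adjusted p of 0.372. At day 1, where neither group was well above background, it was log2 0.16 with an adjusted p of 0.585. miR-222 passed the filter on dim miRNAs through its later groups alone, and differences between them and the others therefore had to arise to some degree.

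The calls of miR-222 were not stable. With slide as a block, the difference was log2 0.31 at day 7 (adjusted p 0.561) and log2 0.46 at day 28 (0.182), both by limma. With a floor 0.5 times as high, day 1 exceeded uninjured by log2 0.88 (adjusted p 0.0148) and day 14 by log2 1.21 (0.00144). On the total gene signal, which Agilent's software sums over the probes of a miRNA, the values were log2 1.35 at day 1 (0.0190) and log2 1.70 at day 14 (0.00386). Without day 28 replicate 2 the difference at day 28 was log2 0.55 with an adjusted p of 0.0630, and leaving out any 1 of the uninjured arrays also ended this call. The moderated F test over the 5 groups gave F = 4.67 with an adjusted p of 0.0259, beside the 61.1% of miRNAs called by it. Day 7 exceeded day 1 by log2 0.57 (adjusted p 0.0448 by limma, 43.3% of miRNAs called in this comparison). With the day 1 arrays set as the uninjured ones were for the bounds above, day 7 was 1.38-fold higher. That value also leaves out the spread between arrays. On the total gene signal, day 7 against day 1 was log2 0.38 (adjusted p 0.429 by limma). No other pair of days passed the test for miR-222 in the fit without a slide term (adjusted p 0.0637 to 0.875 by limma). Day 28 against day 1 did pass with slide as a block, at log2 0.73 with an adjusted p of 0.0350 (20.2% called), though not without day 28 replicate 2 (log2 0.58, adjusted p 0.211). In the fit without a slide term it passed once day 14 replicate 1 was left out, with log2 0.52 (adjusted p 0.0354 by limma). With the percentile over every mouse probe, day 14 and day 28 exceeded day 1 by log2 0.62 and log2 0.83 (adjusted p 0.0256 and 0.00276 by limma). Without day 14 replicate 1, day 14 differed from day 1 by log2 0.10 in place of log2 0.32 and from day 7 by log2 -0.47 in place of log2 -0.25. Day 28 against day 14 was log2 0.20, and log2 0.41 and log2 0.08 without day 14 replicate 1 and without day 28 replicate 2. Day 28 against day 7 was log2 -0.06, and log2 -0.18 without day 28 replicate 2. All injured against all uninjured arrays gave log2 0.52 with the floor, with p = 0.0250 in the two-sided exact permutation test, subject to the limit of the filter given above. The dimmer probe of miR-222 was well above background on 6 of 16 arrays and under the floor on 13, and no day passed the test against uninjured on it (adjusted p 0.515 to 1 by limma).

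On the arrays where both were well above background, miR-221 and miR-222 kept nearly the same ratio. Across these 10 arrays, all of day 7 or later, the signal of miR-222 was 6.50% to 8.72% of that of miR-221, a spread of log2 0.17 (SD). The probes differ in brightness, so the ratio says nothing of the relative amount of the miRNAs and only its change can be read. The ranges were 6.50% to 8.69% on day 7, 6.81% to 8.72% on day 14 and 6.59% to 8.31% on day 28, which overlap throughout. On the uninjured arrays the ratio was 8.49%, 11.0% and 3.20%, from miR-222 signals that were not well above background, so that no change of the ratio with injury is read from them.

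Over the 10 arrays with both well above background, the log2 signals correlated with Pearson r = 0.827 (permutation p = 0.00089) and Spearman rho = 0.927 (permutation p = 0.0004). Adjusted over the 6 relations computed, these p-values were 0.00178 and 0.0008. Both signals of an array share its RNA and its scaling, which the permutation cannot separate from a relation of the 2 miRNAs. Other pairs of miRNAs were not compared over these 10 arrays. Without the 2 arrays farthest from the median of miR-221, r was 0.832 over 8 arrays. For deviations from the mean of each group, r was 0.805 over 10 arrays (permutation p = 0.0183, adjusted 0.0219), and 0.545 without the 2 arrays farthest out, 1 of which is day 28 replicate 2. The relation within groups thus rested in part on those 2 arrays. Over all 16 arrays the groups lay apart, so the pooled correlations, though among the 6 relations computed, are not read as tests. The r over 16 arrays given below only ranks miRNAs by likeness. Within groups over all 16 arrays, r was 0.567 with the floor (permutation p = 0.0609) and 0.631 without it (0.00917, adjusted 0.0138). By the r within groups with the floor, miR-222 ranked 32nd in likeness to miR-221, and miR-221 ranked 20th for miR-222. Such a relation was therefore not particular to this pair.

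**Figure D3:**
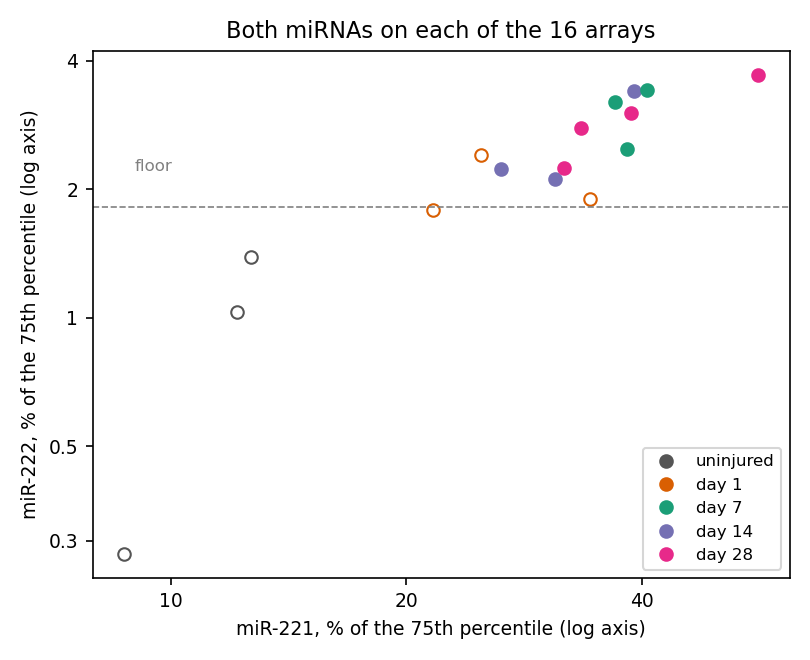
Signal of miR-222 against that of miR-221 on the 16 arrays, each as a percentage of the array's 75th percentile on log axes, coloured by group. Open circles mark arrays on which miR-222 was not well above background, and the dashed line is the floor of 1.81%. The 10 filled points lie along a line with r = 0.827 on the log2 scale, and the 3 uninjured arrays lie below the floor.

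The miRNAs whose pattern over the 16 arrays was most like that of miR-221 were miR-146b (r = 0.945), miR-21 (0.925), miR-350 (0.917), miR-362-3p (0.882) and miR-17* (0.866). These values describe arrays that share their groups and their scaling. miR-146b, a miRNA induced by inflammatory signalling, exceeded uninjured by log2 2.06 at day 1 and log2 3.27 at day 28. miR-21, a miRNA that promotes smooth muscle growth, exceeded it by log2 2.32 and log2 2.67. The others had smaller differences than miR-221 on each day, between log2 0.59 and 1.28. All 20 differences of the 5 miRNAs passed the test in limma. The 5 were picked for likeness to miR-221, which was higher on every injured array than on any uninjured one. Such calls were therefore largely fixed by the choice and are no separate result. For days 1, 7, 14 and 28, limma called 19.6%, 27.4%, 20.2% and 16.8% of all tested miRNAs as higher. miR-222 ranked 16th in likeness to miR-221 with the floor (r = 0.784). miR-221 ranked next to first for miR-222, after miR-362-3p (r = 0.794) and ahead of miR-146a (0.772), miR-148a (0.769) and miR-199a-5p (0.766).

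The miRNAs most opposed to miR-221 were miR-193b (r = -0.877), miR-133a (r = -0.818) and miR-700 (r = -0.794). miR-193b was lower by log2 -1.26 on day 1 and log2 -2.34 on day 7. miR-133a, a miRNA of muscle, was lower by log2 -1.69 on day 7 and log2 -1.72 on day 28, while its difference of log2 -0.66 at day 1 did not pass the test. With slide as a block, miR-133a was not called on day 7 (log2 -0.94, adjusted p 0.353 by limma) or day 28 (log2 -1.34, adjusted p 0.0752). miR-700 and miR-129-5p (r = -0.754) and miR-370 (r = -0.733) were the most opposed to miR-222. These negative values were weaker without scaling, at -0.446 for miR-193b and -0.0992 for miR-700 with miR-221.

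Within groups, where the day no longer contributes, the miRNAs most like miR-221 were partly others. They were miR-142-5p (r = 0.898), miR-17* (0.887), miR-19a (0.880), miR-142-3p (0.840) and miR-199a-5p (0.806). miR-142-5p and miR-142-3p are the 2 strands of a hairpin of blood cells, and miR-17* and miR-19a come from the miR-17-92 cluster. For miR-222, near the floor, they were miR-466a-3p (r = 0.785), miR-296-5p, miR-484, miR-669f and miR-297a* (r = 0.677), and with the percentile over every mouse probe the first and last of these dropped to 0.488 and 0.259.

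**Figure D4:**
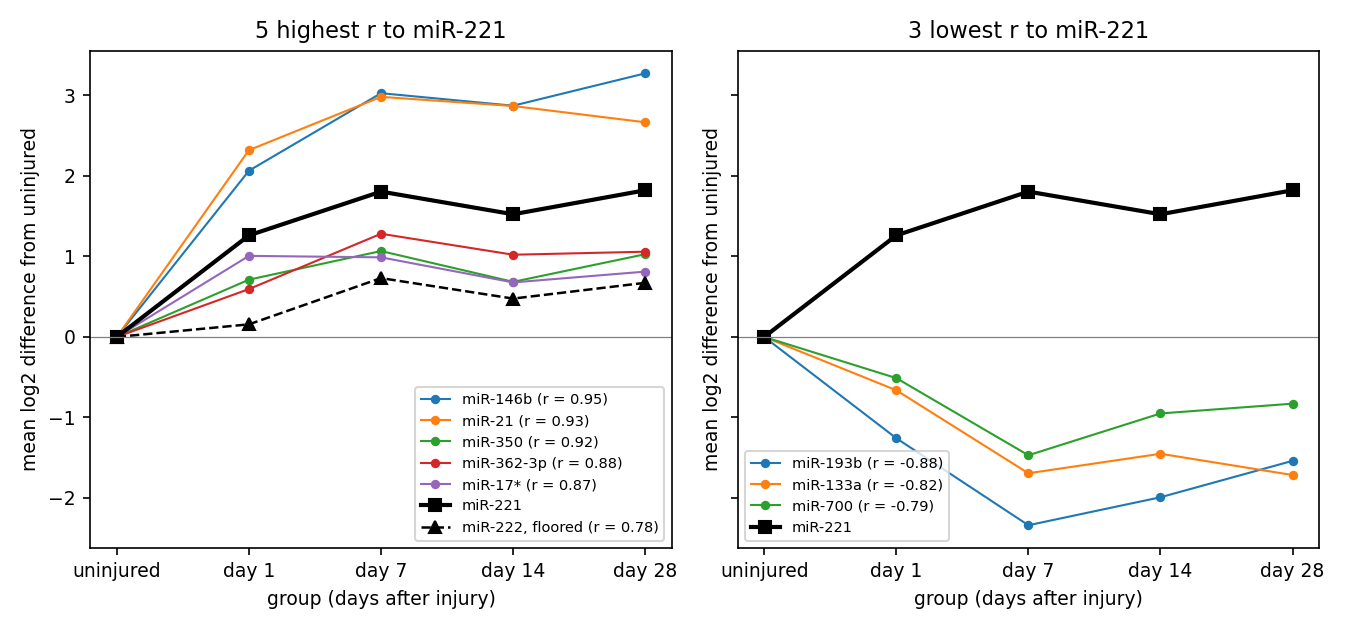
Mean log2 difference from uninjured by group for miR-221 (thick line with squares), miR-222 with the floor (dashed line with triangles) and the 5 miRNAs with the highest (left) and the 3 with the lowest (right) Pearson r to miR-221 over 16 arrays. miR-146b and miR-21 rise above miR-221 at all 4 days, and miR-193b, miR-133a and miR-700 run below 0.

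Among miRNAs known to promote smooth muscle growth, the behaviour of miR-221 was matched by some and not by others. Of the 6 in this list, 2 were higher and 2 lower on days 1, 7 and 14, and 2 were higher and 0 lower on day 28. Of all tested miRNAs, 19.6%, 27.4%, 20.2% and 16.8% were higher and 12.8%, 22.4%, 19% and 9.35% lower on those days. The list median was log2 -0.23, 0.29, 0.01 and 0.28 at those times, beside the medians of all tested miRNAs given above. miR-21 and miR-146a were the 2 higher members at every time. miR-146a, which dampens inflammatory signalling, rose 1.52-fold at day 1 and 6.12-fold at day 28. miR-24 was lower by log2 -0.58 at day 1 and by log2 -0.81 at day 7 (adjusted p 0.00592 and 0.000320 by limma). With slide as a block, of these 3 only miR-21 was called on day 1, and miR-24 was not called on day 7 either (log2 -0.57, adjusted p 0.0573 by limma). The list then had 1, 2, 2 and 2 members higher and 0, 0, 1 and 0 lower on days 1, 7, 14 and 28. Of all tested miRNAs, 7.48%, 16.5%, 21.5% and 13.4% were higher in that fit and 1.87%, 12.1%, 18.7% and 3.74% lower. The 2 lower members of day 14 became 0 without day 14 replicate 1 and 1 without day 28 replicate 2. With no scaling, 4 members were called higher and 0 lower on day 7.

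Of the 7 miRNAs known to restrain smooth muscle growth or to mark its contractile state, some were called lower on each day. In the fit without a slide term, none was called higher. Those called lower numbered 2, 4, 5 and 4 on days 1, 7, 14 and 28. The shares of all tested miRNAs called lower were 12.8%, 22.4%, 19% and 9.35%. Not every member ran down. Without passing the test, miR-365 and miR-1 stood at log2 0.58 and log2 0.59 on day 1, and miR-195 at log2 0.32 on day 28. The list medians were log2 -0.51, -0.78, -1.45 and -1.22. miR-145, which maintains the contractile state of smooth muscle, was lower by log2 -1.92 on day 7 and log2 -2.55 on day 14. miR-143, its neighbour in a cluster, was lower by log2 -1.67 and log2 -2.26 on those days. miR-365 was called at day 14 alone, with log2 -1.38 (adjusted p 0.000266 by limma). With slide as a block the counts of lower members were 0, 2, 5 and 2, beside the shares of lower miRNAs given above for that fit. In it, 1 member, miR-195, was higher on day 28, beside 13.4% of all. With no scaling the counts of lower members were 0, 0, 2 and 0.

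Markers of several cell types moved after injury as well. Of these, miR-143 and miR-145 of smooth muscle and miR-1 and miR-133a of striated muscle also belonged to the growth-restraining list. Their values are those already counted there and no separate result. The summed signal of 6 leukocyte miRNAs was 293% to 304% of the 75th percentile in uninjured arteries and 2658% to 2927% on day 1. It was 1565% to 2044% on day 7, 1450% to 2135% on day 14 and 1220% to 1622% on day 28. Of these 6, 4 were called higher at day 1 and 5 at each later day, where 19.6%, 27.4%, 20.2% and 16.8% of all tested miRNAs were. The counts were 2, 4, 5 and 5 with slide as a block, beside the shares of higher miRNAs given above for that fit. miR-150 was at the floor on 8 of 16 arrays, the others on none. The members differed in their course. miR-223 of myeloid cells exceeded uninjured by log2 4.10 at day 1 and log2 2.44 at day 28. miR-155, induced in activated leukocytes, exceeded it by log2 0.90 at day 1 and log2 3.20 at day 14. miR-342-3p was at log2 -0.18 at day 1, which did not pass the test, and higher by log2 1.91 at day 14. The summed signal of miR-143 and miR-145 was 353% to 637% in uninjured arteries and 294% to 513% on day 1. It was 154% to 180% on day 7, 105% to 110% on day 14 and 189% to 208% on day 28. The sum of the neuronal miRNAs was 76.6% to 201% in uninjured arteries and 118% to 256% on day 1. It was 6.94% to 12.9% on day 7, 0% to 57.5% on day 14 and 33.2% to 71.4% on day 28. Of the 3 neuronal miRNAs tested, 0, 3, 3 and 1 were lower on days 1, 7, 14 and 28, where 12.8%, 22.4%, 19% and 9.35% of all tested miRNAs were. With slide as a block the counts were 0, 3, 2 and 0, beside the shares of lower miRNAs given above for that fit. The sum of the 4 striated muscle miRNAs was 797% to 1224% in uninjured arteries and 568% to 1954% on day 1. It was 386% to 725% on day 7, 363% to 655% on day 14 and 246% to 524% on day 28. Of these miRNAs 0, 1, 2 and 3 were lower on days 1, 7, 14 and 28, beside the same shares of all tested miRNAs. With slide as a block 0, 0, 2 and 0 of them were lower. miR-126-3p of endothelium was higher at day 7 by log2 0.45 (adjusted p 0.0305 by limma), and its differences at days 14 and 28, log2 0.37 and log2 0.42, did not pass the test. With slide as a block it was called at day 7 with log2 0.82 (adjusted p 0.0149 by limma) and at day 28 with log2 0.60 (0.0189). The part of these cell types in the levels of miR-221 and miR-222 was not tested.

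**Figure D5:**
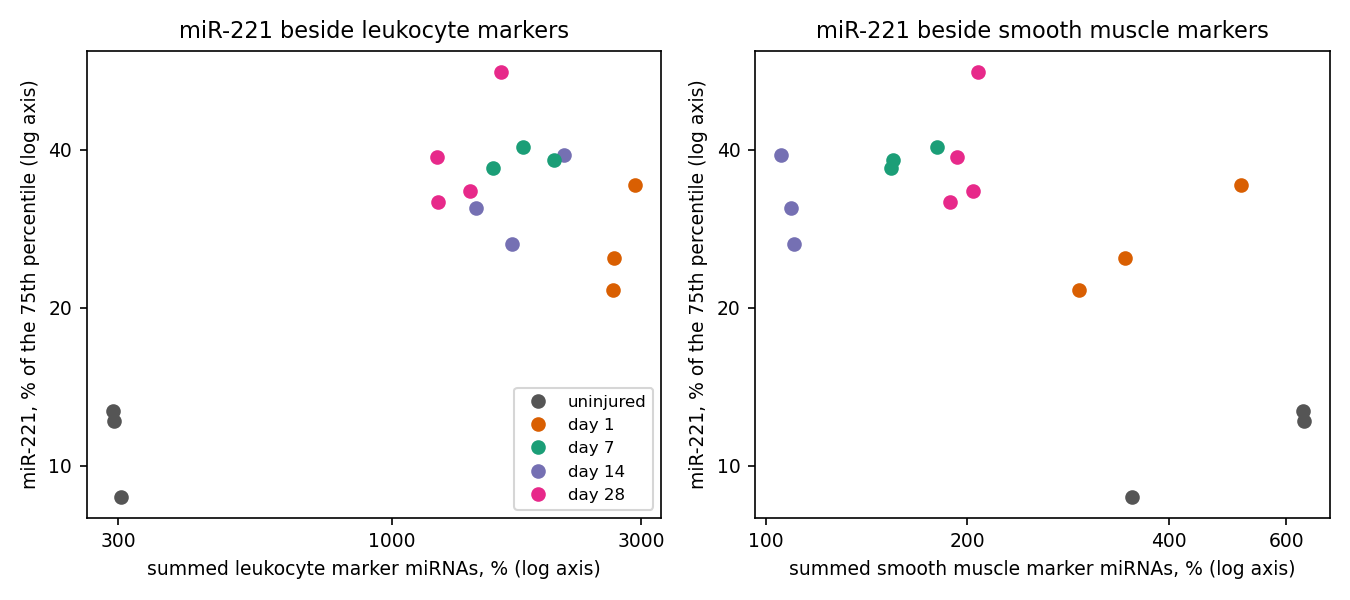
Signal of miR-221 on each array against the summed signal of 6 leukocyte miRNAs (left) and of miR-143 and miR-145 of smooth muscle (right), both as a percentage of the array's 75th percentile on log axes, coloured by group. The uninjured arrays have the lowest leukocyte sums (293% to 304%) and the lowest miR-221, and the day 1 arrays have the highest leukocyte sums (2658% to 2927%) with miR-221 between 21.6% and 34.3%.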

How the data were processed

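Carotid artery RNA was measured on 16 arrays in 5 groups. Per the file headers, the deposited scanner files come from Agilent Feature Extraction 9.5.1.1 and hold the processed intensity of each spot. Flags for background, outliers and saturation come from the same deposited files. The authors' value table holds 610 miRNAs as intensity on a linear scale and equals the total gene signal of the scanner files within 0.1% and rounding. Its column medians ran from 3.81 to 16.6, so its arrays were not brought to a common centre.

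Each probe's spots that bore no outlier mark were averaged, divided by the array's 75th percentile over the 395 probes detected on each of the 16 arrays, floored at 0.0181 and put on the log2 scale. A probe was well above background where at least 50% of its spots were. The brightest probe stood for a miRNA. The 321 miRNAs detected on all arrays of at least 1 group were fitted with limma 3.58.1 in R 4.3.3, over 5 groups without covariates, with Benjamini-Hochberg adjustment within a comparison at 0.05. Files were read with the R package data.table, version 1.17.8. A single value per array was compared by exact permutation, and correlations by 100000 permutations; 3 arrays against 3 cannot give a p below 0.1 that way. The pipeline was tested on simulated data. The labels do not tie each array to an animal, so p-values measure the spread between arrays.

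The members and lists were chosen with earlier results of these data known. Named miRNAs are the members, those of the same seed, and the 5 with the highest and 3 with the lowest Pearson r to a member. Also named are the 5 highest on deviations from group means and up to 3 of each smooth muscle list by smallest p. miR-1, miR-195, miR-223, miR-155 and miR-342-3p were named after their values were seen. Marker lists covered smooth muscle, endothelial, leukocyte, erythroid, striated muscle, neuronal and epithelial miRNAs. Erythroid sums ran from 1514% to 6304%, striated muscle from 246% to 1954%, endothelial from 703% to 1566%, neuronal from 0% to 256% and epithelial from 2.08% to 169% of the 75th percentile. Alternatives covered scaling, background, filter, floor, spots, probes, summary value, slide, replicate number, samples in the fit, moderation and each array left out. The number of arrays limits the precision. Promoters of Mir221 and Mir222 and probe sequences were not used here.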

Additional observations from a re-analysis of the deposited data

Results flagged for a closer look

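miR-222 differed between day 7 and day 1 after injury by log2 0.57 in the fit with the floor (adjusted p 0.0448 by limma). This cannot be read as a difference in the effect of injury between these days. miR-222 passed the filter on dim miRNAs through its later groups alone, so that a difference from day 1 had to arise to some degree. Its brighter probe was well above background on 3 of 3 arrays of day 7 and on 0 of 3 of day 1. The call ended when any of 9 of the 16 arrays was left out. These were uninjured replicates 1, 2 and 3, day 1 replicates 1 and 2, day 7 replicates 2 and 3, day 14 replicate 2 and day 28 replicate 4. No array of miR-221 or miR-222 at day 28, the only group with 4 arrays, lay outside the limit of Dixon's test.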

How the results depend on the processing

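The rise of miR-221 at days 7, 14 and 28 against uninjured kept its direction and its side of the threshold under the alternatives run, with 1 exception. That was day 7 with the replicate block and slide together (log2 1.45). Their size was less stable. With normexp and an offset of 50, miR-221 gave 0.70, 1.097, 0.84 and 1.096 for days 1, 7, 14 and 28 against uninjured and 0.95 for injured against uninjured, and with no scaling day 7 gave 2.77. The call at day 1 was lost under 6 of 20 settings. Leaving out any array ended none of the calls of miR-221 against uninjured. The calls of miR-222 depended on the floor, the filter, the slide and single arrays. The cause of these changes was not tested, except where the construction shows it. An offset of 50 exceeds every signal of miR-222, and a floor 2 times as high lies above nearly all of them. With the percentile over every mouse probe, miR-221 gave log2 0.63 for day 1 against uninjured. Against day 1 it gave 1.03 on day 7, 0.82 on day 14 and 1.13 on day 28. In that setting miR-222 gave 0.65 for day 14 against uninjured, 0.62 and 0.83 for days 14 and 28 against day 1, and 0.029 for day 28 against day 7. Scaled to the median, miR-221 gave 0.61 for day 1 against uninjured, 1.03 and 0.94 for days 7 and 28 against day 1, and -0.095 for day 28 against day 7. miR-222 then gave 0.60 for day 14 against uninjured and 0.73 for day 28 against day 1. With quantile normalization, miR-221 gave 0.58 for day 1 against uninjured and -0.070 for day 28 against day 7. Against day 1 it gave 1.07, 0.84 and 1.00 for days 7, 14 and 28. miR-222 then gave 0.56 for day 14 against uninjured, 0.52 and 0.71 for days 14 and 28 against day 1, and 0.022 for day 28 against day 7. With no scaling, miR-221 gave 1.27 for day 7 against day 1 and -0.31 for day 28 against day 7, and miR-222 gave 0.87 for day 28 against uninjured. Without scaling the r of miR-222 with miR-370 turned to 0.147. With slide as a block, miR-221 gave 0.74 for day 1 against uninjured, 0.24 for day 14 against day 7 and 0.82 for day 28 against day 1, the last also within slide 1. miR-222 gave -0.27, 0.31 and 0.46 for days 1, 7 and 28 against uninjured. Its pairs of days gave 0.17 for 14 against 7, 0.73 for 28 against 1, -0.017 for 28 against 14 and 0.15 for 28 against 7, with the same values within a slide where both groups lay on it. Without day 28 replicate 2 as well, chosen after seeing the data, miR-221 gave 1.01 for day 1 against uninjured and 0.54 for day 7 against day 1. miR-222 then gave -0.12, 0.45 and 0.46 for days 1, 7 and 28 against uninjured, 0.023 for day 14 against day 7, -0.017 for day 28 against day 14 and 0.0065 for day 28 against day 7. With normexp and the offset, miR-221 gave -0.0013 for day 28 against day 7. miR-222 gave F = 0.193, -0.077, -0.0030, -0.073 and -0.12 for days 1, 7, 14 and 28 against uninjured, and -0.071 for injured against uninjured. Its pairs of days gave 0.074 for 7 against 1, -0.040 for 28 against 1 and -0.044 for 28 against 14. On the total gene signal, miR-221 gave -0.055 for day 28 against day 7. miR-222 gave 1.35 and 1.70 for days 1 and 14 against uninjured, 0.38 for day 7 against day 1 and -0.052 for day 28 against day 14. On the authors' value table these values were -0.022, 1.35, 1.70, 0.38 and -0.028. The change of miR-222 relative to miR-221 with injury, log2 -1.10 with the floor by the floor's construction, turned to log2 0.22 on the total gene signal, 0.20 on the value table and 0.20 without the floor. miR-222 was not well above background on the uninjured arrays, so none of these is read. With no filter miR-222 gave F = 4.75, 0.67 for day 28 against uninjured and 0.57 for day 7 against day 1. With the floor 2 times as high it gave F = 0.0516, 0.0082 for day 28 against uninjured and against day 7, 0 for day 7 against uninjured and against day 1, and 0.0025 for injured against uninjured. With the floor 0.5 times as high it gave 0.88 and 1.21 for days 1 and 14 against uninjured and 0.58 for day 7 against day 1. With the mean over probes it gave F = 2.66, 0.44 and 0.39 for days 7 and 28 against uninjured, and 0.36 for day 7 against day 1. With only the groups compared, day 28 against uninjured gave 0.67, and with outlier spots kept day 7 against day 1 gave 0.53. The correlation of miR-221 and miR-222 within groups, 0.567 as reported, was 0.569, 0.646 and 0.902 with the percentile over every mouse probe, the median and no scaling. It was 0.631 without the floor and 0.805 over the 10 arrays with both detected. With each array left out in turn, miR-221 ranged from 0.38 to 0.75 for day 28 against day 1, -0.16 to 0.12 for day 28 against day 7, and 0.40 to 0.73 for day 7 against day 1. miR-222 ranged from F = 3.64 to 6.39, 0.40 to 0.64 for day 28 against day 1 and -0.20 to 0.064 for day 28 against day 7. It ranged from 0.55 to 0.80 for day 28 against uninjured, 0.48 to 0.71 for day 7 against day 1 and 0.48 to 0.57 for injured against uninjured. The pairs of days of miR-221 that gained a call did so without day 1 replicate 1 (both) and without day 28 replicate 2 (day 7 against day 1). The F test and the exact test of miR-222 lost their calls without any 1 of the uninjured arrays, the F test also without day 1 replicate 2 or day 7 replicate 2 or 3.

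Deviations of same-numbered arrays of different groups had correlations from -0.448 to 0.558 (30 pairs, median -0.0618, 8 over 0.1). For arrays of other numbers they ran from -0.567 to 0.482 (60 pairs, median 0.0122, 21 over 0.1). These values gave no sign of pairing by number, but so few arrays per group cannot exclude it. With the replicate block, miR-222 gave F = 3.60, 0.69 for day 28 against uninjured and 0.57 for day 7 against day 1, none of them called. With the replicate block and slide, miR-221 gave 0.90 and 1.45 for days 1 and 7 against uninjured and 0.077 for day 14 against day 7. miR-222 gave F = 3.79, -0.46, 0.12 and 0.28 for days 1, 7 and 28 against uninjured. Its pairs of days gave 0.57 for 7 against 1, 0.36 for 14 against 7, -0.19 for 28 against 14 and 0.16 for 28 against 7.

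Counts of all miRNAs called moved by over 1.5 times in some settings. For day 1 against uninjured the 104 called became 36 with no scaling, 47 with normexp, 30 with slide as a block, 10 with the replicate block as well and 69 without uninjured replicate 2. The 160 of day 7 became 92 with slide as a block and 45 with both blocks. The 126 of day 14 became 72 with no scaling. The 84 of day 28 became 55 with slide as a block, 21 with both blocks and 44 with only the groups compared.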
